A study of Homo sapiens with 6 samples.

Results

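Cells that carried pairs of gene knockouts were irradiated again and again for 15 days, and the abundance of each knockout was compared with its abundance at day 0. The comparison uses 4 of the 6 libraries of the series, chosen by their titles: irradiated day 15 replicates 1 and 2, and day 0 replicates 1 and 2. The other two libraries, grown to day 14 without irradiation, share the fits and are given beside the results. All came from eHAP iCas9-cl#6, 1 clone of a human near-haploid line, p53 null in every group. It carries Cas9 under doxycycline control, kept with blasticidin, and took up the construct library under puromycin. Doxycycline was given for 7 days. Irradiated cells received 0.6 Gy of X-rays a day after each passage and went through 10 population doublings by day 15, against 12 doublings by day 14 without irradiation. The labels call this dose by 2 different lethal-dose terms. The values therefore describe a single clone without p53, a protein that normally arrests damaged cells.

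Each construct carries a pair of guide RNAs, short RNAs that direct Cas9 to cut a chosen gene. A read of the construct in genomic DNA stands for cells that carried it, so a knockout that slows growth loses reads over time. X-rays break DNA. Breaks are rejoined by end joining or copied from a sister chromatid by homologous recombination, while checkpoint kinases hold the cell cycle, and cells that lack such a function are commonly more sensitive to radiation. Other genes in the library, among them the polymerases and helicases of DNA replication, are needed for division with or without damage.

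In all, 863546 guide pairs were read in 1 library or more. They combined 1826 guides against 459 genes (usually 4 each) with 61 non-targeting guides. Guides 1 and 2 of a gene sat at position 1 of the construct and guides 3 and 4 at position 2, and they are named here as Fen1_sg3 for guide 3 of Fen1. Gene names are mouse-style symbols, as the tables write them. Summing a guide over all its partners gave the deepest values, and these lead below as CPM, a guide's share of its library's reads scaled up to a common total.

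The irradiated libraries differed in completeness, and so are shown apart. Replicate 1 held 71481191 reads and lacked 7.6% of guide pairs, whereas replicate 2 held 86587125 reads and lacked 49.4%. The day 0 libraries held 84399152 and 86542435 reads and lacked 4.7% and 1.9%. Of 811979 guide pairs with reads in both day 0 libraries, 5.17% had none in irradiated replicate 1 (exact 95% binomial interval 5.12 to 5.21%) and 47.5% had none in replicate 2 (47.3 to 47.6%). The reads carry no molecular identifiers, so these intervals cover counting error only. Among 220856 pairs with at least 100 reads in each day 0 library, 6 had no reads in replicate 1 and 40867 (18.5%) had none in replicate 2, and only 1 pair was without reads in both.

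The share of pairs without reads followed day 0 abundance differently in each. Among pairs with 60 to 99 reads in day 0 replicate 2, 0.205% had no reads in irradiated replicate 1 and 48.5% had none in replicate 2. Day 14 replicate 1 was also incomplete, without reads for 466995 pairs. Of the 427014 pairs that irradiated replicate 2 lacked, 343764 were also without reads there, which is 80.5% of the gaps of the irradiated library and 73.6% of those of the day 14 library. Of all 863546 pairs, irradiated replicate 2 lacked 49.4% and day 14 replicate 1 lacked 54.1%. Among pairs with 1 to 9 reads in day 0 replicate 2, these shares were 81.0% and 85.8%. Over guide pairs, log2(count + 1) correlated at r = 0.673 between these libraries and at 0.409 between the irradiated replicates. The pairs share libraries and their day 0 abundance and are not independent.

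**Figure D1:**
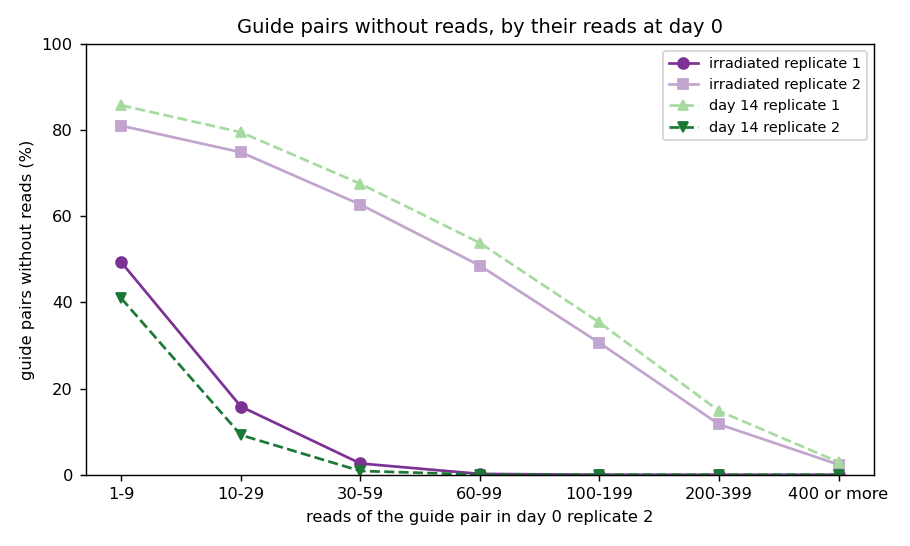
Share of guide pairs without reads (percent) in each day 14 and irradiated library, by the pair's reads in day 0 replicate 2. Irradiated replicate 2 and day 14 replicate 1 lie above their replicates in every bin; in the bin of 60 to 99 reads, irradiated replicate 1 is at 0.205% and replicate 2 at 48.5%.

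Day 0 replicate 1 also stood apart, mainly for guides at position 2. Of 927 tested guides there, 264 lay more than 0.4 below day 0 replicate 2 on the log2 CPM scale (median -0.62), and the rest lay at a median of 0.22 above it. At position 1 this held for 2 of 922 guides, among them Yy1_sg1. The low guides of position 2 came by gene: 131 genes and 11 non-targeting guides were affected. In all 122 such genes with both guides tested at position 2, both were low. A gene in this set appears higher after irradiation when set against day 0 replicate 1, and other genes appear lower, so changes are also given against day 0 replicate 2 alone.

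Across guides, edgeR's quasi-likelihood test called 0 of 1849 (0%) at a Benjamini-Hochberg adjusted p of 0.05, with 57 below an unadjusted p of 0.05 and a smallest adjusted p of 0.0607. DESeq2 called 27, of which 24 were lower and 3 higher. For genes summed over all guides and partners, edgeR called 0 of 459 (0%), with 18 below 0.05 unadjusted, and DESeq2 called 2, Pola1 lower and Cebpg higher. Counts were also simulated with 1 common spread for all guides and without the uneven day 0 replicate 1. In these, 93% of guides changed 1.5-fold and 100% of those changed 2-fold were recovered, and 9 of 1649 unchanged guides were called. The real libraries are less even, so these shares do not give what could be detected in them. Nothing in the labels says that the replicates were separate cultures, so p-values measure the spread between libraries, which may be technical.

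Non-targeting guides gave the background. Against day 0 replicate 2, the 25 at position 1 lay between -0.16 and 0.09 in irradiated replicate 1 and between -0.32 and 0.17 in replicate 2. At position 2 the 36 lay between -0.24 and 0.23, and between -0.35 and 0.22. Of 1788 targeting guides, 12 (0.671%) lay below every non-targeting guide of their position in both irradiated libraries, and 11 (0.615%) lay above all. Of the 12, 11 were at position 2, and of the 11, 9 were at position 1. With day 0 replicate 1 required as well, 7 (0.391%) were below in 4 of 4 comparisons and 7 (0.391%) above.

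**Figure D2:**
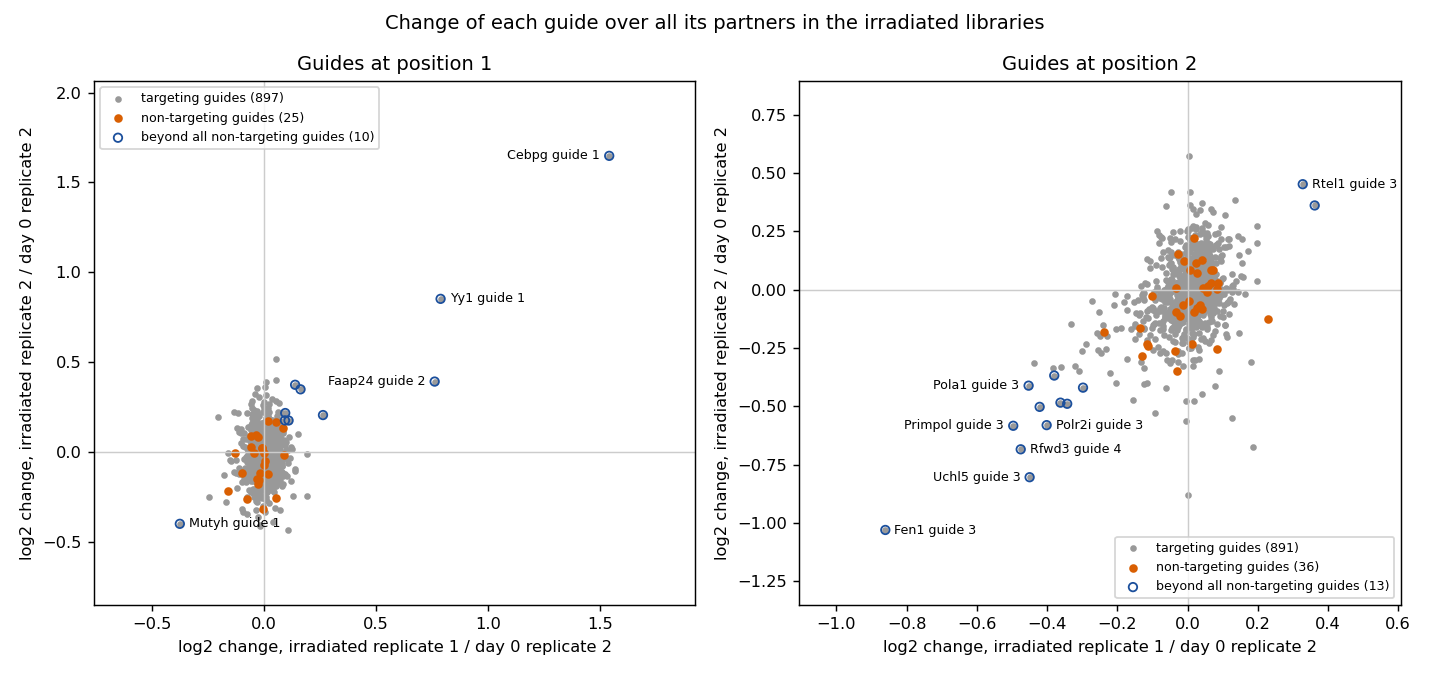
Log2 change of each tested guide, summed over its partners, in irradiated replicate 1 (horizontal axis) and replicate 2 (vertical axis), both against day 0 replicate 2, with the positions in separate panels. Fen1_sg3 lies farthest below the non-targeting guides and Cebpg_sg1 farthest above, at 1.54 and 1.65; the axes differ between panels.

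The lowest guide was Fen1_sg3, against the flap endonuclease that trims Okazaki fragments and acts in long-patch base excision repair (FEN1, chromosome 11, 61792911 to 61797238, GRCh38.p14). It stood at 1037 and 1055 CPM at day 0, at 586 and 655 CPM at day 14, and at 581 and 517 CPM in the irradiated libraries. Both irradiated libraries lay below both day 0 libraries, by about as much as the unirradiated ones. The log2 change against day 0 was -0.89 (95% interval -1.12 to -0.65), with an edgeR adjusted p of 0.125, and it ranged from 9.9e-16 with DESeq2 to 1.00 over 14 alternatives. Against day 14 the difference was -0.18 (interval -0.41 to 0.05, edgeR adjusted p = 1.00). The other tested guides of the gene were at -0.06 (Fen1_sg1), -0.03 (Fen1_sg2) and 0.09 (Fen1_sg4).

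The low value of Fen1_sg3 was spread over its partners. Of 809 constructs with at least 30 reads in day 0 replicate 2, 717 (88.6%) were lower in irradiated replicate 1, at a median log2 change of -1.19. Over 658871 constructs of all guides, 58.0% were lower and the median was -0.16. With the 20 non-targeting partners alone the median for Fen1_sg3 was -1.15. These constructs share a guide and a library, so they are not replicates.

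The lower guide of next smallest p also targeted a replication gene. Pola1 encodes the large subunit of DNA polymerase alpha, which extends the first primers of a new strand (POLA1, chromosome X, 24693918 to 24996986). Pola1_sg3 stood at 3797 and 3017 CPM at day 0, 2509 and 2578 CPM at day 14, and 2204 and 2269 CPM after irradiation. The irradiated values were the lowest of the 6 libraries. Its log2 change was -0.56 (interval -0.77 to -0.35, edgeR adjusted p = 0.341, from 4.45e-05 to 1.00 over 14 alternatives), and -0.43 with an edgeR adjusted p of 0.0149 without day 0 replicate 1. Pola1_sg1 was at -0.01 and Pola1_sg2 at 0.01, so the gene's total of -0.34 (interval -0.48 to -0.19, edgeR adjusted p = 0.624) came from guide 3, and was at -0.0018 from position 1 alone.

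Uchl5_sg3, Primpol_sg3 and Polr2i_sg3 were also among the 12 guides below every non-targeting guide. Uchl5_sg3, against a deubiquitinase of the proteasome and of the INO80 remodeller, stood at 1063 and 954 CPM at day 0 and at 698 and 546 CPM after irradiation, with 695 and 720 CPM at day 14. Primpol_sg3, against the primase that restarts stalled forks, stood at 1516 and 1505 CPM, then at 1067 and 1005 CPM, with 913 and 1117 CPM at day 14. Polr2i_sg3, against a subunit of RNA polymerase II, stood at 606 and 512 CPM, then at 387 and 342 CPM, with 423 and 431 CPM at day 14. None of these irradiated values overlapped day 0, which the choice of guides below every non-targeting guide largely fixed in advance. Of all 1788 targeting guides, 20.1% were lower in 4 of 4 comparisons of an irradiated with a day 0 library. The differences of Uchl5_sg3, Primpol_sg3 and Polr2i_sg3 from day 14 were -0.19, 0.03 and -0.23. The log2 changes against day 0 were -0.65 for Uchl5_sg3, -0.50 for Primpol_sg3 and -0.57 for Polr2i_sg3, with edgeR adjusted p between 0.341 and 0.386. DESeq2 gave adjusted p of 0.000299, 0.00075 and 0.000357. The other guides of Primpol were at 0.0074 (Primpol_sg1), 0.08 (Primpol_sg2) and 0.04 (Primpol_sg4). Of 4 tested guides each, 1 of Uchl5 and 1 of Primpol were lower in 4 of 4 comparisons, against 4 of Polr2i.

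These guides were low with most of their partners. In irradiated replicate 1, 83.0% of 913 constructs with Pola1_sg3 were below day 0 replicate 2, as were 79.4% of 879 with Primpol_sg3, 77.9% of 804 with Uchl5_sg3 and 75.8% of 574 with Polr2i_sg3. Their medians lay between -0.50 and -0.74. With non-targeting partners alone the medians were -0.54 for Pola1_sg3, -0.96 for Uchl5_sg3 and -0.77 for Polr2i_sg3. That of Primpol_sg3, over 22 such partners, was -0.205, the same as the -0.205 of all constructs with a non-targeting partner. Aunip_sg3, against a partner of Aurora A kinase that also acts in break resection, was lower in 75.9% of 871 constructs. It stood at 1597 and 1404 CPM at day 0, at 1245 and 1140 CPM at day 14, and at 1079 and 1089 CPM after irradiation. The log2 change against day 0 was -0.42 (edgeR adjusted p = 0.341), and the difference from day 14 was -0.14 (interval -0.31 to 0.03). The other guides of Aunip were at 0.03 (Aunip_sg1), 0.06 (Aunip_sg2) and -0.11 (Aunip_sg4).

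**Figure D3:**
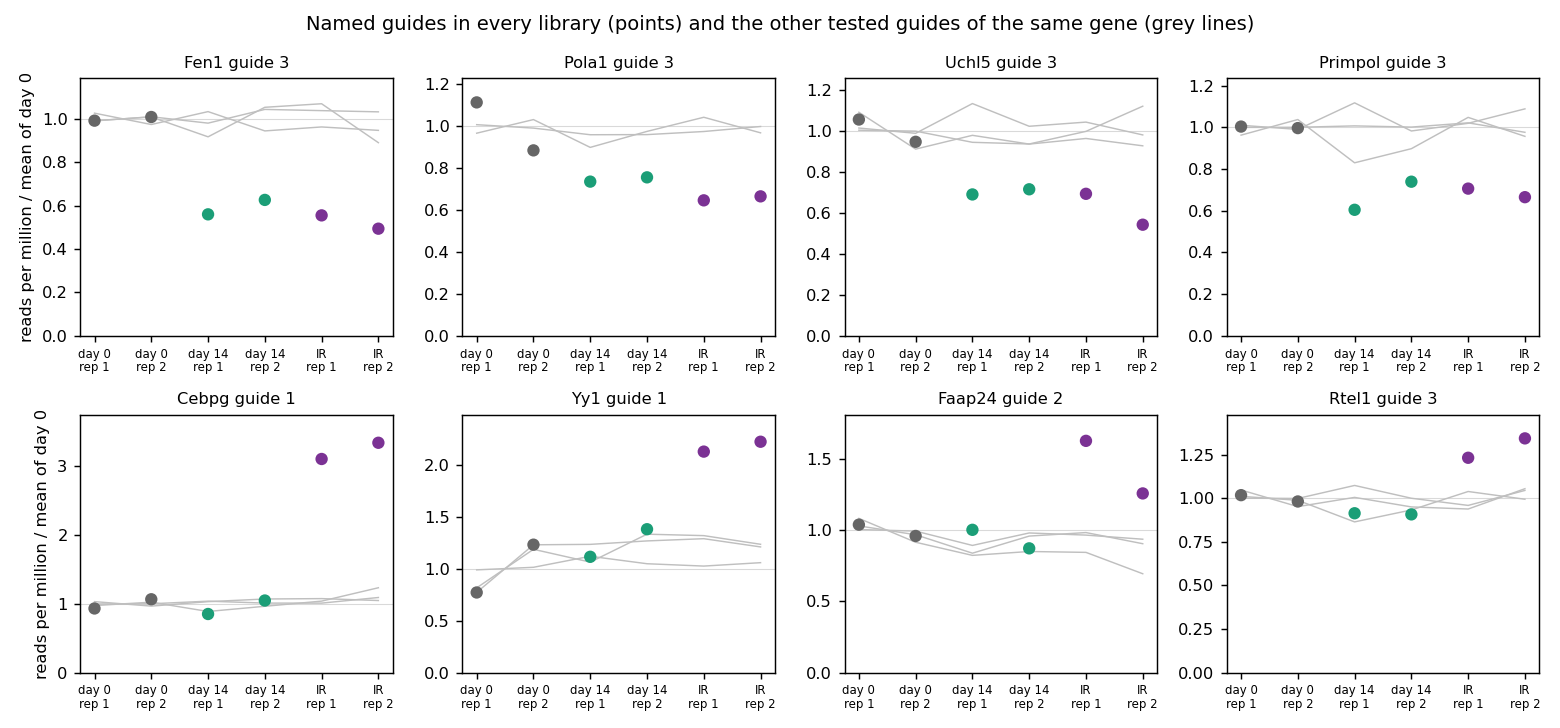
CPM of 8 guides in each of the 6 libraries, divided by their day 0 mean (points; grey lines are the other tested guides of the same gene). In the upper row the day 14 and irradiated libraries lie below day 0, and in the lower row the irradiated libraries lie above the other four.

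Abl1_sg3, against a damage-responsive tyrosine kinase, Rpa2_sg3, against a subunit of the protein that coats single-stranded DNA, and Sfpq_sg4, against an RNA-binding protein of paraspeckles, were also among the 12. Rpa2_sg3 stood at 327 and 305 CPM at day 0 and at 228 and 215 CPM after irradiation, with 236 and 211 CPM at day 14. Their log2 changes lay between -0.47 and -0.41. All 3 were chosen after their values were seen, as were Uchl5_sg3, Primpol_sg3, Polr2i_sg3 and Mutyh_sg1. Of 4 tested guides each, 1 of Abl1, 1 of Rpa2 and 2 of Sfpq were lower in 4 of 4 comparisons.

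A single construct carried the low values of Rfwd3_sg4 and Mutyh_sg1. Rfwd3 encodes a ubiquitin ligase that acts on RPA, and Mutyh a glycosylase that removes adenine opposite oxidised guanine. Rfwd3_sg4 stood at 934 and 751 CPM at day 0, 925 and 1022 CPM at day 14, and 540 and 468 CPM after irradiation. Mutyh_sg1 stood at 1033 and 900.5 CPM, 1246 and 1190 CPM, and 693 and 682 CPM. The construct that joins these guides had 32029 and 21311 reads at day 0, 31108 and 30281 reads at day 14, and 10 and 2 reads after irradiation. It was the largest construct of both day 0 and both day 14 libraries, with 40.6% and 32.8% of the day 0 reads of Rfwd3_sg4. Without it the mean log2 CPM change of Rfwd3_sg4 moved from -0.74 to -0.07 and that of Mutyh_sg1 from -0.49 to 0.07.

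For the double knockouts of smallest p, summed per pair of different genes, both that were lower rested on 1 construct each. edgeR called 0 of 105111 (0%), with 491 below 0.05 unadjusted, and DESeq2 called 2. The Mutyh and Rfwd3 pair was at -6.56 (interval -7.55 to -5.57, edgeR adjusted p = 0.0957), and 98.6% of its day 0 reads came from the Mutyh_sg1 and Rfwd3_sg4 construct. Cul4b, a ubiquitin ligase scaffold, with Xab2, a splicing and excision repair factor, was at -5.38 (edgeR adjusted p = 0.224), and 97.9% came from Cul4b_sg1;Xab2_sg3. That construct had 28163 and 19781 reads at day 0, 18019 and 24241 at day 14, and 299 and 87 after irradiation. The other constructs of the pair had few reads and varied. Cul4b_sg1;Xab2_sg4 had 224 and 267 reads at day 0 and 170 and 50 after irradiation, Cul4b_sg2;Xab2_sg4 had 47 and 109 and then 86 and 170, and Xab2_sg1;Cul4b_sg3 had 9 and 66 and then 2 and 0. Meiob and Wrn, a meiotic recombination factor and the Werner helicase, were at 1.63 (edgeR adjusted p = 1.00), with 581 and 1006 reads at day 0, 629 and 874 at day 14, and 2065 and 2162 after irradiation, and their largest construct held 35.5% of the day 0 reads. In simulated counts the test of pairs recovered 0% of 2-fold changes.

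Among the 220856 constructs with at least 100 reads in each day 0 library, 342 (0.155%) were at least 8-fold lower in irradiated replicate 1 and 155 (0.0702%) in both irradiated libraries. In replicate 2 alone it was 58575, and 0 constructs were at least 8-fold higher in both. Fen1_sg3 was part of 13 of the 342, from 239 of its constructs, and Primpol_sg3 of 7, from 463.

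The highest guide was Cebpg_sg1, against C/EBP gamma, a transcription factor that pairs with ATF4 in the stress response (CEBPG, chromosome 19, 33373709 to 33382686). It stood at 194 and 222 CPM at day 0, 178 and 218 CPM at day 14, and 647 and 696 CPM after irradiation. Both irradiated libraries lay above all others, while day 0 and day 14 overlapped. The log2 change was 1.69 (interval 1.35 to 2.04) with an edgeR adjusted p of 0.0607, which ranged from 3.19e-25 with DESeq2 to 1.00 over 14 alternatives, all between 1.60 and 1.79. With the replicate number as a block it was 0.0403. Against day 14 the difference was 1.76 (interval 1.42 to 2.1, edgeR adjusted p = 0.05005).

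Among partners of Cebpg_sg1, 16 of 208 constructs (7.7%) were lower in irradiated replicate 1 than in day 0 replicate 2, and the median was 1.28. The 6 non-targeting partners had a median of 1.33. In irradiated replicate 2, 27.9% of the 208 had no reads, against 41.0% over all constructs. The other guides of the gene stood at 0.19 (Cebpg_sg2), 0.12 (Cebpg_sg3) and 0.13 (Cebpg_sg4), each higher in 4 of 4 comparisons. For Cebpg_sg2 this rested on Cebpg_sg2;Ercc6_sg3, which had 16 and 40 reads at day 0, 32 in irradiated replicate 1 and 20244 in replicate 2, where it was 26.3% of the guide's reads. Without it Cebpg_sg2 stood at 703 and 738 CPM at day 0 and at 749 and 656 CPM after irradiation, and was higher in 2 of 4. Constructs with both guides against Cebpg summed to 296 and 295 reads at day 0 and to 465 and 426 after irradiation, with 55 and 269 at day 14.

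Yy1_sg1 followed, against a zinc-finger transcription factor that is also a subunit of the INO80 remodeller (YY1, chromosome 14, 100239144 to 100282788). It stood at 566 and 903 CPM at day 0, 818 and 1012 CPM at day 14, and 1561 and 1630 CPM after irradiation. The irradiated libraries lay above the rest, and day 0 replicate 1 lay lowest. The log2 change was 1.12 (interval 0.54 to 1.71, edgeR adjusted p = 0.386, from 4.45e-05 to 1.00 over 14 alternatives). Without day 0 replicate 1 it was 0.82, with an edgeR adjusted p of 0.0115. Yy1_sg2 was at 0.06 and Yy1_sg3 and Yy1_sg4 at 0.39 and 0.35. Yy1_sg3, Yy1_sg4 and Yy1_sg1 itself belong to the guides low in day 0 replicate 1. Against day 0 replicate 2, Yy1_sg3 and Yy1_sg4 lay between -0.02 and 0.15, and Yy1_sg1 at 0.79 and 0.85. Of 775 constructs with Yy1_sg1, 17.5% were lower in irradiated replicate 1, at a median of 0.68.

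Faap24_sg2 and Rtel1_sg3 also lay above every non-targeting guide of their position in both irradiated libraries. FAAP24 helps anchor the Fanconi anemia core complex to DNA, and RTEL1 is a helicase that takes apart displacement loops and telomeric loops. Faap24_sg2 stood at 250 and 231 CPM at day 0, 242 and 210 CPM at day 14, and 392 and 303 CPM after irradiation. Rtel1_sg3 stood at 361 and 348 CPM, 324 and 322 CPM, and 437 and 477 CPM. In neither did the irradiated values overlap another group, which for day 0 follows largely from how these guides were chosen. Of all 1788 targeting guides, 16.3% were higher in 4 of 4 comparisons of an irradiated with a day 0 library. The log2 changes were 0.53 for Faap24_sg2 (interval 0.15 to 0.92, edgeR adjusted p = 0.789) and 0.41 for Rtel1_sg3 (interval 0.20 to 0.62, edgeR adjusted p = 0.386). Over the partners of Rtel1_sg3 the median in irradiated replicate 1 was 0.02, and over those of Faap24_sg2 it was 0.45. With non-targeting partners alone both lay the other way, at -0.50 over 9 partners of Rtel1_sg3 and at -0.91 over 5 of Faap24_sg2. The other guides of Faap24 were at -0.07 (Faap24_sg1), -0.33 (Faap24_sg3) and -0.04 (Faap24_sg4). Xrcc6_sg1, against the Ku70 subunit that binds broken ends, stood at 1364 and 1429 CPM at day 0, at 1542 and 1613 CPM after irradiation and at 1500 and 1531 CPM at day 14, and was at 0.18 with an edgeR adjusted p of 0.789. Other guides above all non-targeting ones were Dclre1a_sg2, Gtf2h3_sg1, Wrap53_sg1, Ttc5_sg2 and Rmi1_sg4, at log2 changes between 0.16 and 0.36, and they too were chosen after their values were seen. Over the partners of Dclre1a_sg2, Gtf2h3_sg1, Wrap53_sg1 and Ttc5_sg2, medians in irradiated replicate 1 lay between -0.21 and -0.02, against -0.16 over all constructs. With non-targeting partners alone these medians lay between 0.07 and 0.14. Only 2 constructs with Rmi1_sg4 had at least 30 reads in day 0 replicate 2, and both were lower.

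**Figure D4:**
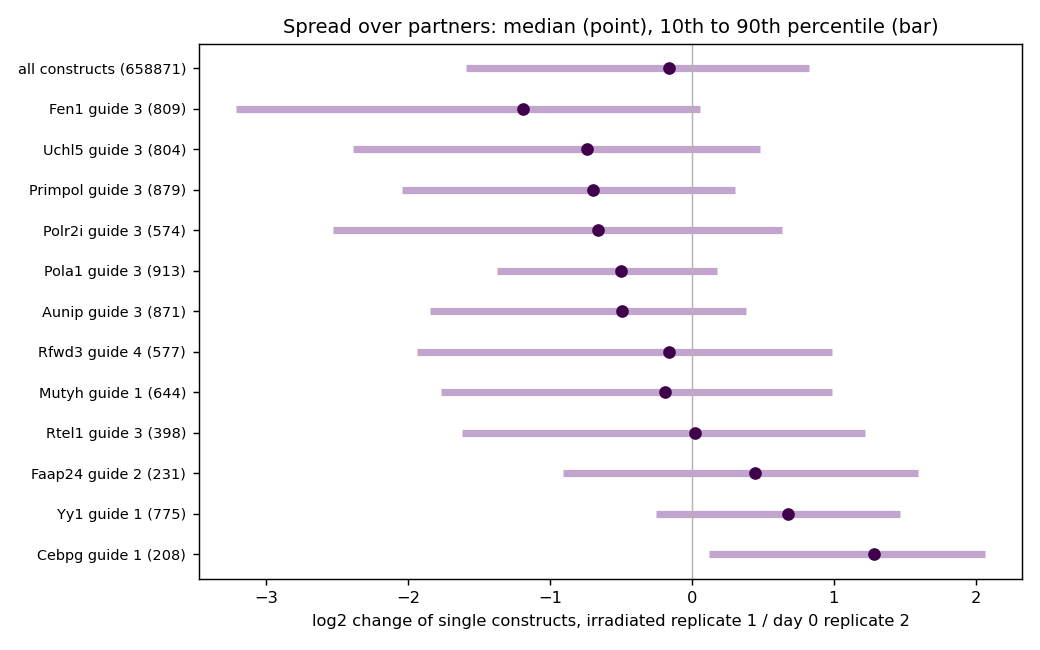
Log2 change of single constructs in irradiated replicate 1 against day 0 replicate 2, as the median (point) and the 10th to 90th percentile (bar) over the partners of each guide, for constructs with at least 30 reads in day 0 replicate 2 (their number in brackets). All constructs have a median of -0.16, Fen1_sg3 of -1.19 and Cebpg_sg1 of 1.28; Rfwd3_sg4 and Mutyh_sg1 lie at -0.16 and -0.19.

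Guides of a gene seldom moved as one. Of 414 genes with 4 tested guides, all 4 were lower in 4 of 4 comparisons for Polr2i and Smc1a, a cohesin subunit, and all 4 were higher for Cebpg, Nono, Trip12 and Ube2v2. Without each guide's largest construct, a count made after the data were seen, this still held for Polr2i, Smc1a and Trip12. It no longer held for Cebpg (Cebpg_sg2), Nono (Nono_sg1, higher in 2 of 4) and Ube2v2 (Ube2v2_sg1, higher in 3 of 4). Guides 3 and 4 of Nono, Trip12 and Ube2v2 were among those low in day 0 replicate 1. Against day 0 replicate 2, and without their largest construct, these guides lay between 0.0034 and 0.17. For a single guide, 20.1% of the 1788 were lower and 16.3% higher in 4 of 4. Polr2i_sg4 was at -0.44 and guides 1 and 2 of that gene at -0.10 and -0.10. The guides of Smc1a lay between -0.25 and -0.14. Constructs with both guides against Smc1a summed to 451 and 210 reads at day 0 and to 74 and 0 after irradiation, with 3 and 139 at day 14. Those against Polr2i had 286 and 234 reads at day 0, 19 and 274 at day 14, and 148 and 506 after irradiation. Irradiated replicate 2 lacked 49.4% of guide pairs, and Faap24 and Mcm9 also had 0 reads there in such constructs. Over 459 genes the median log2 change of such constructs there was -0.29 against day 0 replicate 1 and -0.27 against replicate 2.

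At the gene level, 111 of 459 genes (24.2%) were lower and 74 (16.1%) higher in 4 of 4 comparisons. The lowest by p were Pola1, Cul4b (-0.17), Hus1 (-0.21), Polr2i (-0.18) and Rnf138 (-0.12). Hus1 is part of the clamp that loads at damaged DNA for ATR signalling, and Rnf138 is a ubiquitin ligase that promotes end resection. Hus1 stood at 5458 and 4989 CPM at day 0, at 4334 and 4736 CPM at day 14 and at 4560 and 4297 CPM after irradiation, and Hus1_sg4 was its lowest guide (-0.34). The value for Cul4b moved from -0.20 to -0.10 in mean log2 CPM without Cul4b_sg1;Xab2_sg3. On the other side were Cebpg (0.23), Yy1 (0.45), the translesion polymerase gene Poln (0.09), Ube2v1 (0.32), which makes ubiquitin chains with UBC13, and Kin (0.22), a DNA- and RNA-binding protein. None passed the edgeR test, each at an adjusted p of 0.624. From position 1 alone, Cebpg was at 0.69 and Yy1 at 0.48, with edgeR adjusted p of 0.00212 and 0.0108, while Ube2v1 was at 0.0066, Kin at 0.06, Hus1 at -0.0015 and Rnf138 at -0.0041. The position 1 value of Cebpg joins Cebpg_sg1 (1.69) with Cebpg_sg2 (0.19). Without Cebpg_sg2;Ercc6_sg3, Cebpg_sg2 was higher in 2 of 4 comparisons. The position 1 value of Yy1 includes Yy1_sg1, which was low in day 0 replicate 1. Without day 0 replicate 1, Yy1 was at 0.26, Ube2v1 at 0.13 and Kin at 0.09.

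Over all 6 libraries edgeR called no member of any list, and several list medians changed sign without day 0 replicate 1. DESeq2 called Pola1 of the core replication list, and from position 1 alone edgeR called Yy1 of the chromatin remodelling list. Of 26 core replication genes, 17 were lower and 9 higher at a median of -0.03, against 237 and 222 of all 459 genes at a median of -0.0043. Without day 0 replicate 1, 17 were again lower and the median was -0.02. After Pola1, those of smallest p were Mcm3 of the replicative helicase (-0.18), Gins2 of its GINS subcomplex (-0.14) and Mcm9 (-0.15). Without day 0 replicate 1 they were at -0.06, -0.07 and -0.10, and Gins2_sg3 was at -0.50 (1096 and 864 CPM at day 0, 637 and 695 CPM after irradiation, 698 and 693 CPM at day 14).

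Of 25 nucleotide excision repair genes, 19 were higher with a median of 0.15, and 18 of the 25 had guides that were low in day 0 replicate 1. Without that library 15 were higher and the median was 0.01. Base excision repair (16 of 26 higher, median 0.10) and mismatch repair (7 of 10, median 0.09) did the same, with 13 and 6 affected genes and medians of -0.0045 and 0.0049 without it. Neil3, a glycosylase, was at 0.22 and at 0.06 without it, and Msh6, a mismatch sensor, at 0.20 and 0.03. Fanconi anemia genes had 20 of 24 lower at a median of -0.04, with Faap20 at -0.18. Without day 0 replicate 1 the count was 10 lower, the median 0.01 and Faap20 at -0.12.

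**Figure D5:**
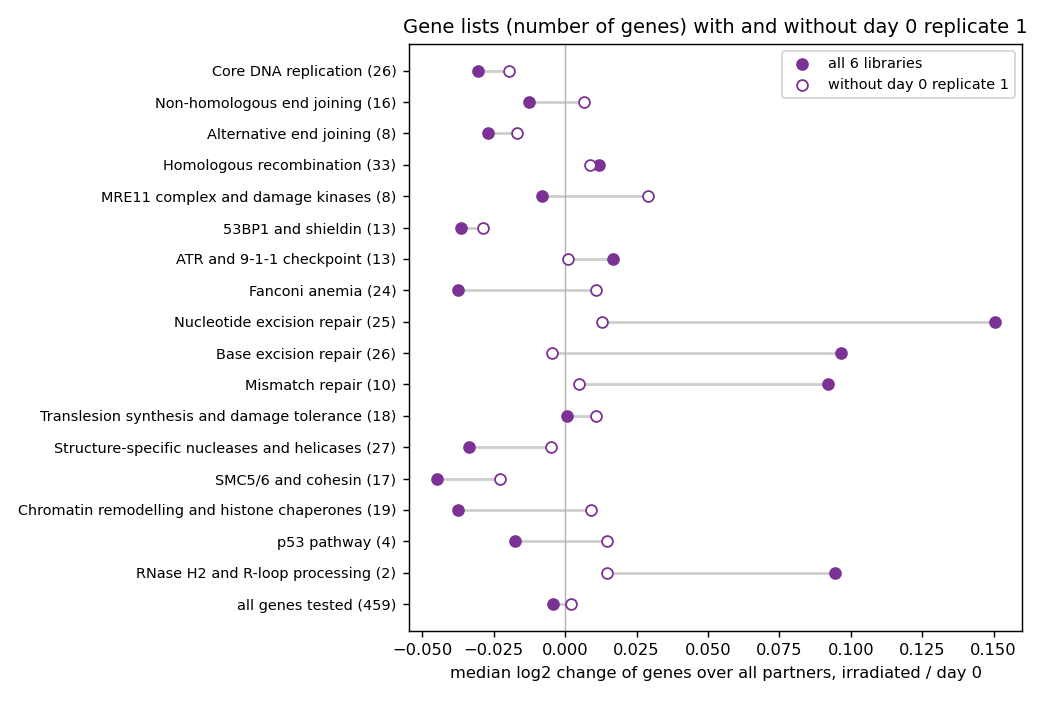
Median log2 change of 17 gene lists and of all 459 genes, irradiated against day 0, over all 6 libraries (filled) and without day 0 replicate 1 (open). Nucleotide excision repair is at 0.15 with that library and at 0.01 without it.

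Non-homologous end joining had 11 of 16 members lower at a median of -0.01, with values between -0.12 and 0.26, and 8 of 16 lower without day 0 replicate 1. Lig4, the ligase that seals breaks, was at -0.05 (interval -0.20 to 0.10), Xrcc5, the Ku80 subunit, at -0.01 (-0.12 to 0.11) and Nhej1, the XLF bridging factor, at -0.01 (-0.11 to 0.08). Xrcc4, the partner of the ligase, was at 0.15 and Xrcc6 at 0.26, and both were among the genes low in day 0 replicate 1, without which they were at 0.03 and 0.06. The intervals of Lig4, Xrcc5 and Nhej1 do not reach a 1.5-fold decrease of the summed guides. A fall of 1 guide can be diluted in such a sum: Pola1 was at -0.34 as a gene and Pola1_sg3 at -0.56.

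Homologous recombination split into 16 lower and 17 higher of 33, at a median of 0.01 and with values between -0.15 and 0.21, and had 12 lower without day 0 replicate 1. Brca1, which promotes resection, was at -0.07 (interval -0.22 to 0.08), Brca2, which acts in strand exchange, at -0.01 and Palb2, which joins the BRCA proteins, at -0.13. Leaving out day 0 replicate 1 put them at -0.02, 0.03 and -0.07. Rbbp8, the resection factor CtIP, was at 0.07. Polq, the polymerase of alternative end joining, was at -0.09, in a list with 5 of 8 lower (median -0.03), and of the same list Xrcc1 was at 0.26 and at 0.05 without day 0 replicate 1. None of these genes passed edgeR's test.

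Among signalling genes, the values ran from -0.14 (H2afx, the histone marked at breaks) to 0.05 in the MRE11 complex and damage kinases, and from -0.21 (Hus1) to 0.09 in the ATR and 9-1-1 list. In the MRE11 complex and damage kinases 5 of 8 were lower (median -0.0080), and 1 of 8 without day 0 replicate 1 (median 0.03), with Atm, the kinase that answers breaks, at -0.01 (interval -0.11 to 0.09), Atr, which answers single-stranded DNA, at 0.05, Mre11a at -0.05 and Rad50 at 0.02. Without that library H2afx was at -0.05 and Mre11a at 0.03. The ATR and 9-1-1 list had 4 of 13 lower (median 0.02), and 6 without it (median 0.0011), and Chek1, the kinase downstream of ATR, was at -0.03. The 53BP1 and shieldin list, which protects ends from resection, had 9 of 13 lower (median -0.04), and 10 without day 0 replicate 1 (median -0.03). Trp53bp1 was at 0.14 and at -0.0082 without that library. Rnf8, the ligase that marks broken chromatin, was at -0.10 and at -0.06 without it. Trp53, already lost in this clone, was at 0.24 and at 0.05 without that library.

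Among the other lists, SMC5/6 and cohesin had 13 of 17 lower at a median of -0.04. Without day 0 replicate 1, 10 of its members were lower at a median of -0.02, against 220 of all 459 genes. Smc1a was at -0.20 and Cdca5, which stabilises cohesin, at -0.10. Without that library these were at -0.13 and -0.05. Chromatin remodelling had 13 of 19 lower (median -0.04), and 9 without day 0 replicate 1 (median 0.0089). Ino80 was at -0.18 and at -0.10 without that library. The value of Ino80 came from guides 3 and 4, since Ino80_sg1 and Ino80_sg2 were too rare to be tested. Structure-specific nucleases and helicases had 16 of 27 lower (median -0.03), translesion synthesis 9 of 18 (median 0.00057), the p53 pathway 3 of 4 (median -0.02) and RNase H2 and R-loop processing 0 of 2 (median 0.09). In the fit without day 0 replicate 1 these counts were 14, 6, 1 and 1, at medians of -0.0050, 0.01, 0.01 and 0.01.

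Single knockouts, read from a gene's guides paired with non-targeting guides, had fewer reads and a wider spread. edgeR called 0 of 459 (0%), with 12 below 0.05 unadjusted, and DESeq2 called 0, with 14 below. Pola1 stood at 132 and 117 CPM at day 0, 67.1 and 106 CPM at day 14, and 93.9 and 67.4 CPM after irradiation, a log2 change of -0.61 (interval -1.05 to -0.18). Hus1 was at -0.53 (interval -0.92 to -0.14) and Mcm3 at -0.36 (interval -0.71 to -0.02). Yy1 stood at 85.8 and 108 CPM at day 0, 122 and 113 CPM at day 14, and 132 and 126 CPM after irradiation, at 0.43 (interval 0.06 to 0.81). All had edgeR adjusted p of 0.974. These values were scaled on constructs without any targeting guide, of which irradiated replicate 2 lacked 66.6% and replicate 1 lacked 16.1%.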

How the data were processed

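Genomic DNA was amplified over the guide locus and sequenced. The deposited values are raw counts of reads per guide pair, per the file headers; pairs not listed were set to 0. HISAT2 2.1.0 and hg38 appear in the submitters' processing notes without a stated role, and the sources used here do not say how reads were assigned to guides. The combined tables also hold 2 columns of no sample, not used. Guide sequences were not used here.

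Counts were summed per guide, gene, single and double knockout. edgeR 4.0.16 (R 4.3.3) fitted all 6 libraries with group as the factor, two-sided, with Benjamini-Hochberg adjustment over all features. Scaling was TMM (within position for guides), or the total of constructs with 2 non-targeting guides for single knockouts. Mean counts of at least 2000 (guides, genes) or 20 (knockouts) were required. DESeq2 1.42.0 was an alternative. Shares of constructs and partners were described with no test, with 0.5 added to counts for log ratios. Tests were checked on simulated data. The members and lists were chosen with earlier results of these data known.

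Guides and genes were named by rule: those past the threshold, else the 5 of smallest p in each direction, the 4 members of each list with the smallest p, and a fixed set of repair genes; for pairs the 3 of smallest p. A few items picked this way are not reported here. Replicate numbers were not taken to pair libraries. Of 459 symbols, 445 matched a current human symbol, 9 an older one and 5 none; gene positions are RefSeq's for GRCh38.p14.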

Additional observations from a re-analysis of the deposited data

How the results depend on the processing

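The number of guides called was 0 in the fit reported, 27 with DESeq2, 2 with scaling by non-targeting guides, 1 (Cebpg_sg1) with positions fitted apart and 1 (Cebpg_sg1) with the replicate number as a block. Leaving out 1 library gave 0 to 312 guides, 0 to 161 genes and 0 single knockouts. The 312 guides (52 lower, 260 higher) and 161 genes (37 lower, 124 higher) came without day 0 replicate 2, which leaves the uneven day 0 replicate 1 as the only baseline. Without day 0 replicate 1, 4 guides were called, Cebpg_sg1, Yy1_sg1, Fen1_sg3 and Pola1_sg3. The 3 single knockouts (Mc1r, Ssrp1 and Ube2t, all higher) came without both incomplete libraries, an alternative added after the data were seen, like the positions fitted apart. Genes called were 2 with DESeq2 and 2 from position 1 alone, and double knockouts 2 with DESeq2. Of the named guides, those called against day 14 were 0 in the fit reported, 5 with DESeq2, 1 with the replicate block, 1 with non-targeting scaling, 1 without the count filter and 0 to 3 without a library. Of the named genes, 2 were called against day 14 from position 1 alone. The replicate numbers did not pair the libraries: deviations of same-numbered libraries correlated at 0.11 between day 0 and irradiated, -0.05 between day 0 and day 14, and -0.58 between day 14 and irradiated. With the last crossed, 0 guides, 0 genes and 0 single knockouts were called.

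Pairs without reads fell to 2.57% and 44.3% with at least 10 reads in each day 0 library, and to 0.0977% and 30.3% with at least 50, in irradiated replicates 1 and 2. From position 1 guides alone, 24 of the named genes took the other sign: Gins2 0.054, Tdp1 -0.036, Polq 0.0045, Rbbp8 -0.017, H2afx 0.012, Atr -0.027, Mre11a 0.0403, Ube2n 0.025, Hus1b 0.0027, Rfwd3 0.074, Cenpx 0.036, Msh5 -0.00063, Msh3 -0.0047, Primpol 0.056, Smc3 0.031, Uchl5 0.042, Usp7 0.0067, Chek2 0.031, Usp28 0.0069, Chek1 0.0196, Nhej1 0.0024, Trp53bp1 -0.014, Brca1 0.064 and Brca2 0.0011. From position 2 alone Rad50 was at -0.0063 and Atm at 0.014, and with library totals Rad50 was at -0.0012. Without both incomplete libraries the sign turned for Usp28 0.0081, Chek1 0.00053 and Xrcc5 0.0084. Leaving out 1 library at a time turned the sign of 10 named genes, whose values ran as follows: Mre11a -0.13 to 0.031, Chek2 -0.069 to 0.014, Usp28 -0.028 to 0.015, Rnaseh2a -0.0018 to 0.30, Chek1 -0.064 to 0.00053, Atm -0.041 to 0.018, Lig4 -0.12 to 0.021, Xrcc5 -0.022 to 0.0084, Trp53bp1 -0.0082 to 0.30 and Brca2 -0.061 to 0.032. The median 95% half-width was 0.20 for guides, 0.14 for genes, 0.40 for single and 1.34 for double knockouts on the log2 scale, which limits the size of change these libraries could show. The cause of these shifts was not tested.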

Other observations

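The largest constructs of the irradiated libraries were different in each. In replicate 1 the largest was Swsap1_sg2;Gtf2h5_sg3, with 8530 reads, against 206 in replicate 2 and 71 and 713 at day 0. In replicate 2 it was Smc2_sg2;Pif1_sg3, with 42278 reads, against 117 in replicate 1, 227 and 224 at day 0, and 11571 and 155 at day 14. Sirt1_sg1;Bivm_sg3 likewise had 16572 reads in irradiated replicate 2 and 15347 in day 14 replicate 1, with between 126 and 176 in the other four libraries. Cebpg_sg2;Ercc6_sg3 had 20244 reads in irradiated replicate 2 and 0 to 40 elsewhere. Of the 220856 constructs with at least 100 reads in each day 0 library, 4 were at least 8-fold higher in irradiated replicate 1 and 377 in replicate 2.

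Cebpg_sg1 and Faap24_sg2, among the highest guides, target genes that lie 395 kb apart on chromosome 19, while the other guides of Faap24 were not higher. Whether this distance bears on their values was not tested.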
